A study of Mus musculus with 24 samples.

Results

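The data cover 10 genes of the bone morphogenetic protein (BMP) pathway in immortalised cells of mouse inguinal fat: Bmp4, Bmp2, Bmp1, Bmpr1a, Bmpr2, Grem1, Smad6, Id1, Id2 and Id3. They were chosen by name out of the 24825 genes listed, with earlier results of these data known. RNA-seq was performed on cultured stromal vascular cells, a mixture that includes adipocyte precursors, from the inguinal white fat of Nfia flox/flox mice, in which loxP sites surround exon 2 of Nfia. All cells carried SV40 large T antigen, the agent used to immortalise them. The 4 cell types were ctrl (empty retroviral vector), Cre (a retrovirus for Cre recombinase), Cre + NFIA, which also received full-length NFIA with a FLAG tag, and Cre + NFIA Δpro#3, whose FLAG-tagged NFIA lacks pro#3, a proline-rich stretch at the C terminus. Each was collected at day 0 and at day 7 of differentiation into thermogenic adipocytes, in 3 libraries, which gives 24 libraries in 8 groups. The inducing medium held isobutylmethylxanthine, indomethacin, dexamethasone, insulin, T3 and rosiglitazone, and the later medium held insulin, T3 and rosiglitazone, so all day 7 cells had received these agents. Transgenes were delivered by retrovirus into 1 kind of immortalised culture. Nothing in the sources used here says that the 3 libraries of a group came from separate cultures, so p-values measure only the spread between these libraries, which may be technical.

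BMPs are secreted dimers of the TGF-β superfamily. They bring type I receptors such as Bmpr1a and type II receptors such as Bmpr2 together at the cell surface, and the type I receptor then phosphorylates SMAD1, SMAD5 and SMAD9, which enter the nucleus with SMAD4. Id1, Id2 and Id3, inhibitors of basic helix-loop-helix transcription factors, and the inhibitory SMAD Smad6 are classical genes induced by this signal, while secreted antagonists such as gremlin 1 (Grem1) bind the ligands outside the cell. In fat, BMP4 is known for committing mesenchymal precursors to the adipocyte lineage. Bmp1 carries the name but is no ligand of this family: it is an astacin metalloproteinase that cleaves procollagens and chordin.

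Library totals were 7.73 to 14.62 M reads (M, 1000000), lowest in the day 0 libraries labelled Cre (7.73 to 10.16 M). The targeted gene was checked first. Nfia was at 6.47 ± 0.264 FPKM (fragments per kilobase of gene and per 1000000 fragments counted; mean ± SD, n = 3 here and below) in ctrl and 6.21 ± 0.773 in the libraries labelled Cre at day 0, and at 9.55 ± 0.355 and 10.1 ± 0.589 at day 7. It therefore did not fall at the level of the whole gene (adjusted p = 0.687 at day 0 and 0.426 at day 7, limma). A value over the whole gene does not check the removal of exon 2, so the libraries are called by their label here. For its Cre-expressing cells the paper reports efficient recombination, judged by PCR of genomic DNA. It also reports a nearly complete loss of NFIA mRNA by RT-qPCR and of NFIA protein by western blot. With the transgenes Nfia was at 72.4 and 60.7 FPKM at day 0 and at 90.0 and 102 FPKM at day 7, with full-length NFIA first, and these values include transgene reads. Of 8 adipocyte precursor and fibroblast markers 7 were above 1 FPKM in at least some libraries (Dpp4 was not), and their summed level was 2910 to 3378 FPKM at day 0. The 3 epithelial markers Epcam, Krt8 and Krt18 stayed below 1 FPKM in all libraries. So did 2 of 4 endothelial markers (Pecam1 and Cdh5) and 2 of 4 macrophage and leukocyte markers (Ptprc and Adgre1, the latter with 0 reads). The other endothelial markers reached 7.34 FPKM (Tek) and 3.73 FPKM (Kdr), and the other macrophage and leukocyte markers 8.23 FPKM (Cd68) and 3.64 FPKM (Csf1r). At day 0 Csf1r was at 2.98 to 3.64 FPKM in Cre + NFIA Δpro#3 and at most 1.27 FPKM in the other cell types, and the part of these markers in the results was not tested. The 4 smooth muscle and pericyte markers summed to 69.83 to 280.8 FPKM over all libraries, with Rgs5 below 1 FPKM throughout. In bulk RNA, fewer cells of a type and less RNA per cell cannot be told apart.

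Day 7 cell types differed in adipocyte markers. The 6 markers of that list summed to 19590 to 22970 FPKM in ctrl, 3732 to 8310 in the libraries labelled Cre, 18220 to 18380 in Cre + NFIA and 620.5 to 1734 in Cre + NFIA Δpro#3, against 13.56 to 36.79 at day 0, with Lep below 1 FPKM throughout. Pparg, the main regulator of adipocyte differentiation, was at 52.0 ± 2.5, 22.4 ± 5.55, 60.0 ± 3.34 and 9.02 ± 2.52 FPKM in these groups. Their part in the day 7 differences below was not tested. The 6 proliferation markers summed at day 0 to 408 to 437.9 FPKM in ctrl, 412.6 to 467.9 in the libraries labelled Cre, 541.9 to 561.1 in Cre + NFIA and 517.5 to 533.5 in Cre + NFIA Δpro#3. At day 7 they summed to 482.9 to 570.8 FPKM over all 12 libraries.

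Tests were made with limma on log2(FPKM + 1), for the 12640 genes that reached 1 FPKM in 3 or more libraries. All changes on the log2 scale below are differences of log2(FPKM + 1), a scale that compresses changes at low levels. Members pass the test at an adjusted p under 0.05, and a change is said to reach 3-fold where it does so on this scale. Of the 10 genes 9 were tested, and Bmp2 was too low.

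The promoters are shown because the cell types differ in an NFI factor and because several of the genes moved together. RefSeq promoters of the GRCm38.p6 build, 250 bases before to 50 after the start, were given for 7 of the 10 genes, and those of the 5 that hold an NFI core motif are printed here. The deposited values were made on mm9, so these coordinates are not those of the expression data. Capitals mark the NFI core motif (TTGGC, or GCCAA on the other strand) and the GC-rich BMP motif (GGCGCC).
Bmp4 promoter (chr14:46390620-46390919, minus strand): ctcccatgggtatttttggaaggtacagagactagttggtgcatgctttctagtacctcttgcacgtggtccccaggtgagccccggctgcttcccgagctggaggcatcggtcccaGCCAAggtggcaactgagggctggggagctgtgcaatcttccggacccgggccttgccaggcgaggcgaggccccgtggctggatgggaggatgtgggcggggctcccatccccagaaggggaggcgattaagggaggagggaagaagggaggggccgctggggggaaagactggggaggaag
Grem1 promoter (chr2:113758599-113758898, minus strand): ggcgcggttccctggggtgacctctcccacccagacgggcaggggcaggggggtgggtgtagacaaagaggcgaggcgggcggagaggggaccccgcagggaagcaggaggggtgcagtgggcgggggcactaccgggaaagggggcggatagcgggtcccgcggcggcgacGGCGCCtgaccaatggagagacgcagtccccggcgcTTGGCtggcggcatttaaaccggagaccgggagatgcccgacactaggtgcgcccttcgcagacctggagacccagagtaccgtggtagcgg
Smad6 promoter (chr9:64022010-64022309, minus strand): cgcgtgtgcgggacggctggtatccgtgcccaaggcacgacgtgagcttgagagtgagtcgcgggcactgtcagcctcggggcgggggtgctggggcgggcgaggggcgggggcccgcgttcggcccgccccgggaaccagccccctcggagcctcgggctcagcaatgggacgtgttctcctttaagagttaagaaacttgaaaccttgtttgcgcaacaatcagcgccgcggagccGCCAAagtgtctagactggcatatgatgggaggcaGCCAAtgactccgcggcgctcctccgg
Id2 promoter (chr12:25096043-25096342, minus strand): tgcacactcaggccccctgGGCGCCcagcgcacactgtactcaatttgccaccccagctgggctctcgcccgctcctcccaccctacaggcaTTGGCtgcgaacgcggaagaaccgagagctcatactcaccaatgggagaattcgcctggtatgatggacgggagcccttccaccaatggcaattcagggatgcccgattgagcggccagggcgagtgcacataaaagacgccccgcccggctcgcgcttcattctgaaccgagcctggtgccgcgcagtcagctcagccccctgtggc
Id3 promoter (chr4:136143572-136143871, plus strand): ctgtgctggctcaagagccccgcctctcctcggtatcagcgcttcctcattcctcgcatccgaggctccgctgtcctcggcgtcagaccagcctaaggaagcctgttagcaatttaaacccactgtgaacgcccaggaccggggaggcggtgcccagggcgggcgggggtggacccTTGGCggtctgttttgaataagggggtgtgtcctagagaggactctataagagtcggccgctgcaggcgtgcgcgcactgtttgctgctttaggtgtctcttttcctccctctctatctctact
The NFI core motif lies at -133 in Bmp4, at -42 in Grem1, at -12 and 23 in Smad6, at -158 in Id2 and at -74 in Id3, counted from the start of transcription. Of all 32851 promoters of this length 46.71% hold this core motif, so its presence is common. The NFI palindrome, a pair of core motifs facing each other across a short spacer, was in none of the 7, and 12 of all promoters (0.0365%) hold it. The GC-rich motif was found in Grem1 (-78), Id2 (-231), Bmpr1a (-198) and Bmpr2 (-105), against 11.87% of all promoters, and the SMAD motif CAGAC was found on either strand at a pair of places each in Grem1 and Id3, against 49.59% of promoters that hold it. Both strands were searched, and no match overlapped another. A match describes letters in a window and is no evidence of binding.

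Bmp4, the ligand among the members with reads in every library, was far higher with full-length NFIA than in any other cell type on both days. Bmp4 lies on chromosome 14 (47003195 to 47010344, minus strand, mm9). At day 0 its 3 Cre + NFIA libraries were at 12.8, 11.5 and 14.0 FPKM (280, 224 and 309 reads). The other 9 day 0 libraries lay between 0.148 and 0.526 FPKM (4 to 12 reads), so every Cre + NFIA library stood far above all others and no groups of the other cell types were separate from each other. Group means at day 0 were 0.339 ± 0.185 FPKM in ctrl, 0.340 ± 0.161 in the libraries labelled Cre, 12.8 ± 1.24 in Cre + NFIA and 0.362 ± 0.0776 in Cre + NFIA Δpro#3. The log2 difference between Cre + NFIA and the libraries labelled Cre was 3.36 (95% interval 3.10 to 3.63, adjusted p = 4.47e-08), and between Cre + NFIA Δpro#3 and Cre + NFIA it was -3.33 (adjusted p = 1.01e-07). Because the pseudocount compresses low values, the ratio of pooled reads per 1000000 is the better measure of size: it was 35.9 (exact 95% interval 22.9 to 60.0, 813 against 19 reads, counting error only) for Cre + NFIA over the libraries labelled Cre. For Cre + NFIA Δpro#3 over the libraries labelled Cre the same ratio was 1.02 (0.548 to 1.93), and the log2 difference was 0.03 (-0.24 to 0.30, adjusted p = 0.909).

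At day 7 Bmp4 was again highest in Cre + NFIA, at lower levels than at day 0. The Cre + NFIA libraries were at 2.71, 2.03 and 2.43 FPKM (75, 52 and 73 reads), and the other 9 libraries at 0.0405 to 0.562 FPKM (1 to 14 reads). Again the Cre + NFIA group overlapped none of the others. The difference from the libraries labelled Cre was 1.62 (1.32 to 1.93, adjusted p = 1.15e-06), with a read ratio of 26.5 (11.95 to 73.0, 200 against 6 reads). Cre + NFIA Δpro#3 held 28 reads over its 3 libraries (10, 14 and 4), a ratio of 4.12 (1.67 to 12.2) to the 6 reads of the libraries labelled Cre. That interval covers counting error alone, and over replicates the difference did not pass the test (0.32, adjusted p = 0.149). Ctrl and the libraries labelled Cre, at 10 and 6 reads, differed by a ratio whose interval was 0.205 to 2.09. Within Cre + NFIA the gene changed from day 0 to day 7 by -2.02 on the log2 scale (adjusted p = 1.65e-11), to 0.187 times the reads per 1000000 (0.160 to 0.219). That ratio was 0.399 (0.171 to 0.861) in ctrl, 0.254 (0.083 to 0.661) in the libraries labelled Cre and 1.03 (0.588 to 1.80) in Cre + NFIA Δpro#3. Neither ctrl (adjusted p = 0.0998) nor the libraries labelled Cre (0.0815) passed the test over time. With a pseudocount of 0.1 both did (0.0394 and 0.0205).

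Bmp2, the ligand closest to Bmp4, was at the limit of detection. It had 2 reads in all 24 libraries together, 1 in ctrl replicate 1 at day 0 and 1 in ctrl replicate 1 at day 7, and 0 in the other 22. A count of 0 allows up to 3 reads, which is 0.205 to 0.388 reads per 1000000 over these libraries, and no comparison was made.

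**Figure D1:**
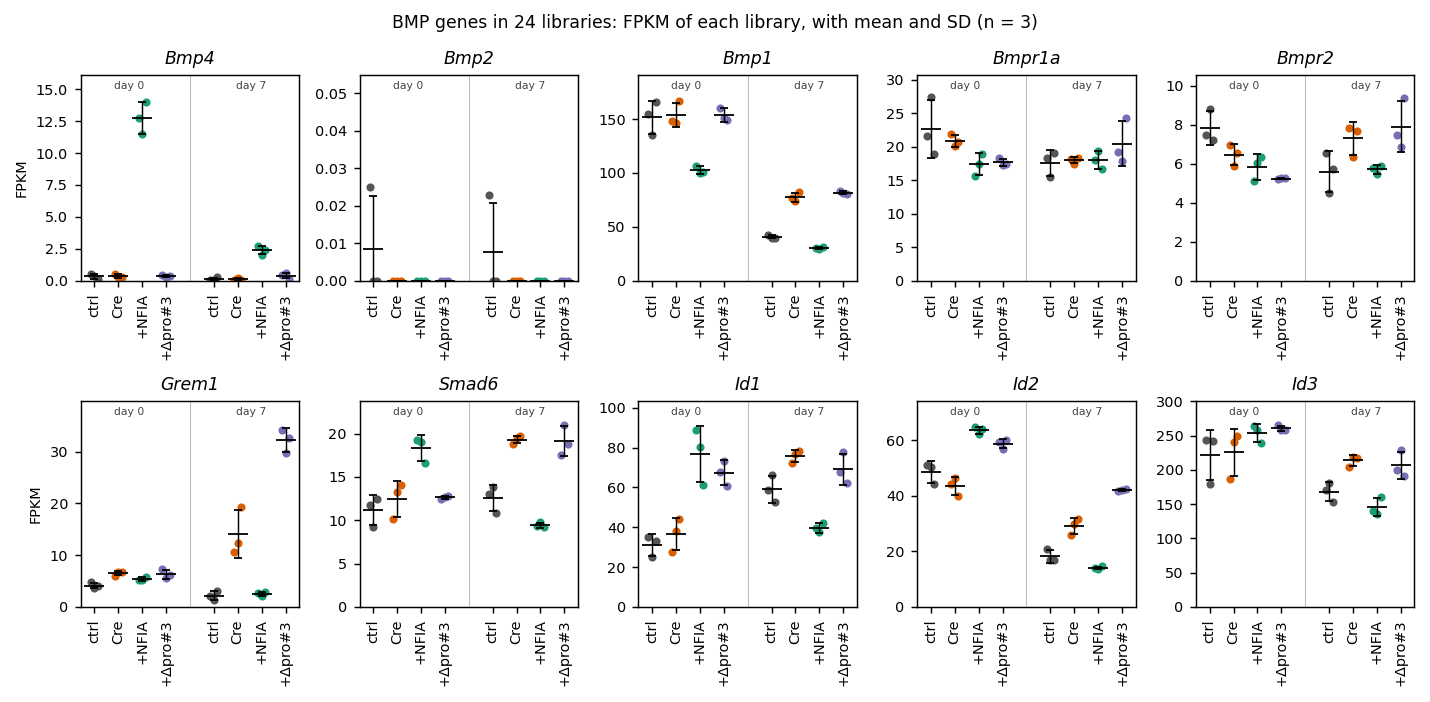
FPKM (y axis, linear, from 0) of the 10 genes in each of the 24 libraries, by cell type and day. Coloured points are libraries, and the black bar and whiskers are the group mean and SD (n = 3). Bmp4 stands at 11.5 to 14.0 FPKM in Cre + NFIA at day 0, and Grem1 reaches 29.7 to 34.2 FPKM in Cre + NFIA Δpro#3 at day 7.

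Bmp1, the procollagen C-proteinase on chromosome 14 (70874364 to 70920067, minus strand), was abundant and, unlike Bmp4, lower with full-length NFIA. At day 0 it was at 152 ± 15.4 FPKM in ctrl, 154 ± 11.5 in the libraries labelled Cre, 102 ± 3.62 in Cre + NFIA and 154 ± 6.20 in Cre + NFIA Δpro#3. The Cre + NFIA libraries (107, 100.2 and 100.6 FPKM) lay below each of the other 9 (135 to 167 FPKM). The difference from the libraries labelled Cre was -0.58 (-0.74 to -0.41, adjusted p = 0.000229), and Δpro#3 differed from full-length NFIA by 0.58 (adjusted p = 0.000504). By day 7 the 4 cell types had split into a low pair and a high pair. Ctrl was at 40.6 ± 1.33 FPKM and Cre + NFIA at 30.1 ± 1.18, against 77.4 ± 4.26 in the libraries labelled Cre and 81.7 ± 1.02 in Cre + NFIA Δpro#3. Cre against ctrl was 0.92 (0.81 to 1.03, adjusted p = 2.66e-07) and Cre + NFIA against Cre was -1.33 (-1.44 to -1.22, adjusted p = 4.54e-09). Cre + NFIA was also below ctrl (-0.42, adjusted p = 0.000222), while the last pair, Cre + NFIA Δpro#3 and the libraries labelled Cre, differed by 0.08 (-0.03 to 0.19, adjusted p = 0.337). The low pair is the pair with the higher adipocyte marker sums given above. Adipocyte precursor and fibroblast markers, 7 of 8 detected, summed at day 7 to 862.7 to 937.3 FPKM in ctrl, 1818 to 2081 in the libraries labelled Cre, 767.7 to 864.1 in Cre + NFIA and 1994 to 2320 in Cre + NFIA Δpro#3, and their part was not tested. Ly6a and Col1a1 made up most of these sums. Of the detected markers only Dcn was highest in ctrl, at 20.4 to 24.1 FPKM. It was at 10.7 to 13.4 FPKM in the libraries labelled Cre, 9.84 to 11.8 in Cre + NFIA and 11.5 to 15.4 in Cre + NFIA Δpro#3.

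Both receptors had reads in every library. Bmpr1a (chromosome 14, 35223920 to 35316527, minus strand), a type I receptor, had group means of 17.4 to 22.6 FPKM at day 0 and 17.6 to 20.4 at day 7. Bmpr2 (chromosome 1, 59821481 to 59927703, plus strand), the type II receptor, had means of 5.24 to 7.83 FPKM at day 0 and 5.59 to 7.90 at day 7. In the 5 comparisons made within each day no difference of either receptor was above 0.40 on the log2 scale. Cre + NFIA Δpro#3 was not tested against ctrl; for that pair the mean FPKM of Bmpr2 was 5.24 against 7.83 at day 0 and 7.90 against 5.59 at day 7. Levels of different genes compare only through the deposited gene lengths. That of Bmpr2 was 11087 bases against 3507 bases of exons in GENCODE vM1. Reads were not recounted over the shorter model, so its FPKM under that model is not known. At day 0 Bmpr1a was lower in Cre + NFIA than in ctrl (-0.35, adjusted p = 0.0334). That call rests on ctrl replicate 2, whose 27.4 FPKM was the highest of all libraries. Without it the difference was -0.21 (adjusted p = 0.0799), and the call was also lost without ctrl replicate 1 (adjusted p = 0.0571), Cre + NFIA replicate 1 (adjusted p = 0.120) or Cre + NFIA replicate 2 (adjusted p = 0.0736). Bmpr2 was lower in Cre + NFIA than in ctrl at day 0 (-0.37, adjusted p = 0.0111). At day 7 Bmpr2 was higher in the libraries labelled Cre than in ctrl (0.34, 0.06 to 0.62, adjusted p = 0.0401), with overlapping groups (6.34 to 7.85 against 4.47 to 6.56 FPKM), and without ctrl replicate 2 the difference was 0.21 (adjusted p = 0.170). It was lost too when ctrl replicate 3, replicate 1 or 3 of the libraries labelled Cre, or any Cre + NFIA library was left out (adjusted p = 0.0511 to 0.124). Bmpr2 in Cre + NFIA Δpro#3 exceeded Cre + NFIA at day 7 by 0.40 (adjusted p = 0.0160), and without Cre + NFIA Δpro#3 replicate 3 by 0.28 (adjusted p = 0.0728).

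Grem1 (chromosome 2, 113586321 to 113598803, minus strand), the secreted antagonist of BMP2 and BMP4, showed the widest differences between cell types of the 9 tested genes at day 7 on the log2 scale. At day 0 its means were 4.11 ± 0.534 FPKM in ctrl, 6.45 ± 0.389 in the libraries labelled Cre, 5.33 ± 0.358 in Cre + NFIA and 6.31 ± 0.905 in Cre + NFIA Δpro#3. The libraries labelled Cre were above ctrl by 0.55 (0.32 to 0.78, adjusted p = 0.0213), a call that was lost without ctrl replicate 2 (0.48, adjusted p = 0.0637), ctrl replicate 3 (0.53, 0.0565) and, among the libraries labelled Cre, replicate 2 (0.52, 0.0679) or replicate 3 (0.53, 0.0725). Neither transgene changed that level past the test (Cre + NFIA against Cre -0.23, adjusted p = 0.120, and Cre + NFIA Δpro#3 against Cre -0.03, adjusted p = 0.864). Cre + NFIA was above ctrl by 0.31 (adjusted p = 0.0393), and 6 of the 12 day 0 libraries, left out singly, ended that call (adjusted p = 0.0546 to 0.125): ctrl replicates 2 and 3, all 3 of Cre + NFIA, and Cre + NFIA Δpro#3 replicate 3.

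At day 7 the groups were apart. Ctrl libraries were at 2.09, 1.28 and 2.98 FPKM, the libraries labelled Cre at 10.6, 12.3 and 19.4, Cre + NFIA at 2.68, 2.10 and 2.88, and Cre + NFIA Δpro#3 at 34.2, 29.7 and 32.7. Ctrl and Cre + NFIA overlapped (adjusted p = 0.532), the libraries labelled Cre lay above both, and Cre + NFIA Δpro#3 lay above all others. The difference was 2.27 (1.80 to 2.74, adjusted p = 4.46e-06) for Cre against ctrl, a ratio of means of 6.65. Full-length NFIA against Cre gave -2.05 (adjusted p = 5.54e-06), Δpro#3 against Cre gave 1.18 (0.71 to 1.65, adjusted p = 0.00327), and Δpro#3 against full-length NFIA gave 3.23 (adjusted p = 7.98e-08, ratio 12.6). Of the 3 osteoblast markers only Bglap stood out, at 18.6 to 21.9 FPKM in Cre + NFIA Δpro#3 at day 7. The other day 7 libraries were at 5.03 to 10.0 FPKM. Sp7 and Ibsp stayed below 1 FPKM in all libraries. Sp7 at day 7 was at 0.0249 to 0.0782 FPKM in Cre + NFIA Δpro#3 and 0.103 to 0.184 in the libraries labelled Cre. Smooth muscle and pericyte markers summed at day 7 to 135.5 to 167.2 FPKM in ctrl, 177 to 224.1 in the libraries labelled Cre, 78.72 to 93.72 in Cre + NFIA and 230 to 280.8 in Cre + NFIA Δpro#3. Acta2 made up most of that sum (228.3 to 279.6 FPKM in Cre + NFIA Δpro#3), and Rgs5, below 1 FPKM, went the same way. Myh11 and Cspg4 were instead lowest in the libraries labelled Cre and in Cre + NFIA Δpro#3. Myh11 was at 0.642 to 0.741 and 0.517 to 0.749 FPKM there, against 2.51 to 3.03 in ctrl and 1.51 to 1.73 in Cre + NFIA. The part of osteoblast, smooth muscle or pericyte cells in the Grem1 level was not tested.

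**Figure D2:**
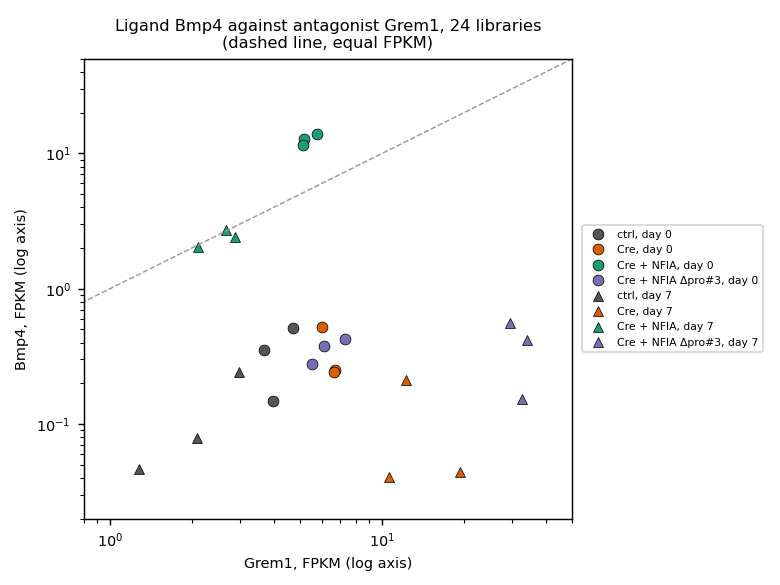
Bmp4 against Grem1, both in FPKM on log axes, 1 point per library, with colours for cell types, circles for day 0 and triangles for day 7. The dashed line marks equal FPKM. The day 0 Cre + NFIA libraries lie above the line, those of day 7 lie near it (mean ratio 0.939), and all other libraries lie far below it.

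Set beside each other, the RNA levels of Bmp4 and Grem1 differed in ratio between groups. This ratio leaves out other ligands and antagonists with reads here, such as Bmp6, Nbl1 and Chrdl1, and is no measure of the whole balance. Outside Cre + NFIA it rests on 1 to 14 Bmp4 reads per library. The ratio of Bmp4 to Grem1 FPKM was 2.39 ± 0.117 in Cre + NFIA at day 0 and 0.939 ± 0.0873 at day 7. In the other day 0 groups it was 0.0809 ± 0.0383 (ctrl), 0.0539 ± 0.0292 (labelled Cre) and 0.0571 ± 0.00618 (Cre + NFIA Δpro#3), and at day 7 it was 0.0516 ± 0.0252, 0.0078 ± 0.00827 and 0.0119 ± 0.00714 in that order. The Cre + NFIA libraries thus stood above all others on this ratio on both days. The deposited length of Grem1 was 1639 bases against 4148 in GENCODE vM1, which sets the absolute ratio but not its differences between groups.

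Smad6 (chromosome 9, 63800953 to 63869866, minus strand), the inhibitory SMAD that blocks BMP receptor signalling, was higher with full-length NFIA at day 0 and lower at day 7. At day 0 ctrl was at 11.2 ± 1.70 FPKM, the libraries labelled Cre at 12.5 ± 2.08, Cre + NFIA at 18.3 ± 1.48 and Cre + NFIA Δpro#3 at 12.6 ± 0.168. The Cre + NFIA libraries (19.3, 19.1 and 16.6 FPKM) were above each of the other 9 (9.27 to 14.0 FPKM). Cre + NFIA against Cre was 0.53 (0.26 to 0.81, adjusted p = 0.00896), and Δpro#3 against Cre was 0.03 (-0.24 to 0.31, adjusted p = 0.901). The difference of Δpro#3 from full-length NFIA, -0.50 (adjusted p = 0.0274), kept its size but not its call without Cre + NFIA replicate 1 or 2 or any Cre + NFIA Δpro#3 library (-0.46 to -0.51, adjusted p = 0.0755 to 0.0969). At day 7 the order turned: ctrl was at 12.6 ± 1.52, the libraries labelled Cre at 19.3 ± 0.455, Cre + NFIA at 9.44 ± 0.305 and Cre + NFIA Δpro#3 at 19.1 ± 1.77 FPKM. Cre + NFIA was then the lowest group and overlapped none (-0.96 against Cre, adjusted p = 1.22e-06, and -0.37 against ctrl, adjusted p = 0.0101). Δpro#3 and the libraries labelled Cre differed by -0.02 (-0.20 to 0.17, adjusted p = 0.917).

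Id1 (chromosome 2, 152561987 to 152563146, plus strand) separated the cell types in another way at day 0, with higher levels in both groups that carried an NFIA transgene. Ctrl libraries were at 35.3, 24.8 and 33.1 FPKM and the libraries labelled Cre at 27.8, 37.9 and 44.1. Cre + NFIA libraries were at 88.8, 80.1 and 61.4 and Cre + NFIA Δpro#3 libraries at 67.8, 73.4 and 60.8. Both groups with an NFIA transgene lay above both groups without one, and they overlapped each other. Full-length NFIA against Cre gave 1.06 (0.64 to 1.47, adjusted p = 0.00177) and Δpro#3 against Cre 0.88 (0.47 to 1.30, adjusted p = 0.00861), while the 2 forms differed by -0.17 (-0.59 to 0.24, adjusted p = 0.668). The interval does not show that they act alike. The proliferation markers above were also higher in both groups with an NFIA transgene, and their part was not tested.

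Id2 (chromosome 12, 25778666 to 25780957, minus strand) shared this day 0 pattern at a smaller size. Its means were 48.6 ± 3.91 FPKM in ctrl, 43.6 ± 3.22 in the libraries labelled Cre, 63.6 ± 1.24 in Cre + NFIA and 58.7 ± 1.58 in Cre + NFIA Δpro#3. Against Cre, full-length NFIA gave 0.54 (0.39 to 0.68, adjusted p = 0.000139) and Δpro#3 0.42 (0.28 to 0.57, adjusted p = 0.00141), with groups that did not overlap. Id3 (chromosome 4, 135699412 to 135701670, plus strand), the most abundant of the 3, did not pass the test at day 0. Its means were 222 ± 36.5, 226 ± 33.8, 254 ± 12.8 and 261 ± 3.70 FPKM in the order above, and Cre + NFIA against Cre was 0.18 (-0.10 to 0.46, adjusted p = 0.324). Thus at day 0 Bmp4 and Smad6 were high with full-length NFIA alone, and Id1 and Id2 with either form.

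At day 7 all 3 ID genes were lowest in Cre + NFIA. Id1 was at 59.1 ± 6.70 FPKM in ctrl, 75.7 ± 2.92 in the libraries labelled Cre, 39.7 ± 2.38 in Cre + NFIA and 69.2 ± 7.77 in Cre + NFIA Δpro#3. Id2 was at 18.2 ± 2.27, 29.1 ± 2.84, 14.1 ± 0.42 and 42.1 ± 0.339 FPKM over these groups, and Id3 at 168 ± 13.5, 214 ± 8.09, 146 ± 13.4 and 207 ± 19.8. Only for Id2 were Cre + NFIA Δpro#3 libraries above those labelled Cre past the test (41.8, 42.1 and 42.5 against 26.0, 29.9 and 31.5 FPKM; 0.52, 0.34 to 0.71, adjusted p = 0.00155). For Id1 and Id3 that difference was -0.13 (-0.33 to 0.07, adjusted p = 0.361) and -0.05 (-0.24 to 0.14, adjusted p = 0.738). Against Cre, Cre + NFIA was lower for all 3 (Id1 -0.92, Id2 -0.99 and Id3 -0.56, adjusted p = 3.43e-06, 9.31e-07 and 0.000125). Against ctrl it was lower for Id1 (-0.56, adjusted p = 0.00152) and Id2 (-0.34, adjusted p = 0.0153, and -0.33 with adjusted p = 0.0569 without Cre + NFIA replicate 2), and for Id3 the difference was -0.21 (adjusted p = 0.119).

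Summed over the 3 genes, ID transcripts stood at 301 ± 40.7, 306 ± 40.8, 394 ± 26.9 and 387 ± 6.54 FPKM at day 0 and at 245 ± 20.5, 319 ± 13.6, 199 ± 16.1 and 318 ± 27.5 FPKM at day 7, with the cell types in the order above. Id3 made up 64.5% to 73.7% of the sum in every group. The share of Id1 was 10.3%, 11.9%, 19.4% and 17.4% at day 0 and 24.1%, 23.8%, 19.9% and 21.7% at day 7, in the same order of cell types. The share of Id2 was 14.5% to 16.4% at day 0 and 7.08% to 13.3% at day 7.

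**Figure D3:**
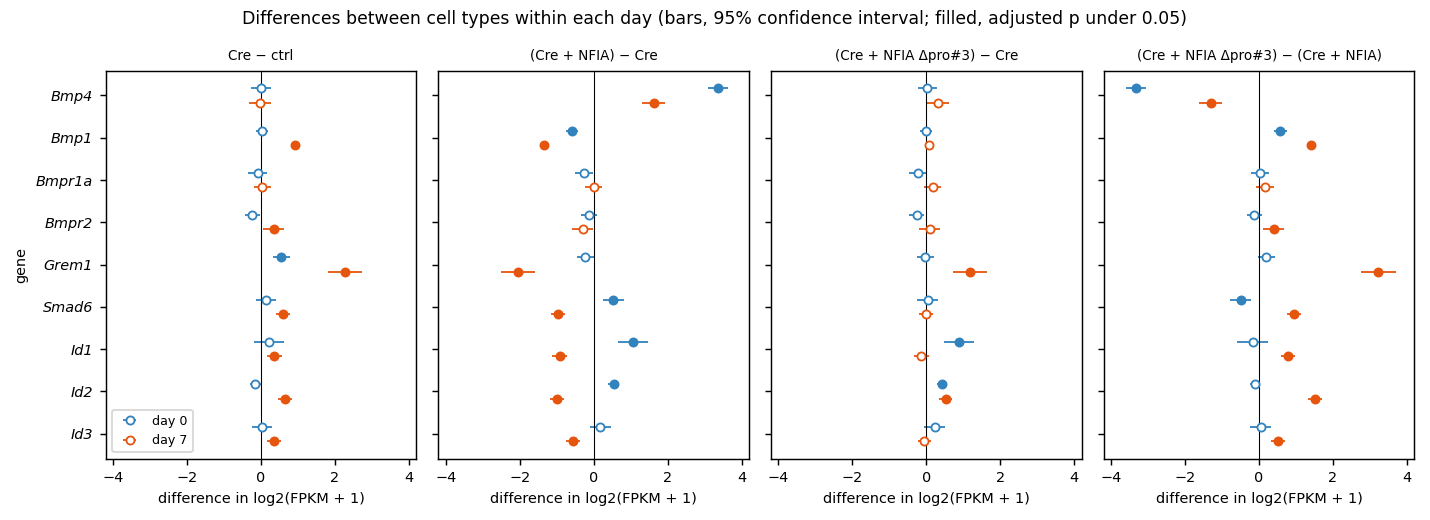
Differences in log2(FPKM + 1) between cell types (x axis) for the 9 tested genes, in 4 comparisons, with day 0 in blue and day 7 in orange. Bars are 95% confidence intervals and filled points passed the test. For Cre + NFIA against Cre, Smad6 and Id1 lie to the right of 0 at day 0 and to the left at day 7, and Bmp4 lies to the right on both days.

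Counted over the 9 tested members at day 0, 1 was higher (Grem1) and 0 were lower between the libraries labelled Cre and ctrl, where 1.63% of all genes tested were higher and 1.70% lower (limma, with 2 lower at an unadjusted p under 0.05 and 0 with limma voom on recovered reads). For Cre + NFIA against Cre 4 were higher and 1 lower, against 14.7% and 12.9% of all genes. For Cre + NFIA Δpro#3 against Cre 2 were higher (Id1 and Id2) and 0 lower (1 lower at an unadjusted p under 0.05, and 1, Bmpr2, with limma voom), against 9.26% and 9.02%. For Δpro#3 against full-length NFIA 1 was higher (Bmp1) and 2 lower (Bmp4 and Smad6), against 4.5% and 5.59%, and for Cre + NFIA against ctrl 5 were higher and 3 lower, against 18.8% and 14.3%. Median changes of the members were 0.02, 0.18, 0.03, -0.11 and 0.31 in these comparisons, beside 0.01, 0.02, 0.01, -0.002 and 0.02 for all genes.

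At day 7 a larger part of all genes passed the test than at day 0 in most comparisons. A smaller part did where Cre + NFIA was set beside ctrl or Δpro#3 beside Cre. For Cre against ctrl 7 of 9 members were higher and 0 lower, against 36.1% and 22.7% of all genes, and with median-of-ratios size factors, which moved the median of all genes by -0.11, 4 of the 7 kept an adjusted p under 0.05 (Bmpr2, Id1 and Id3 did not). For Cre + NFIA against Cre 1 was higher (Bmp4) and 6 lower, against 27% and 35.9%. For Cre + NFIA Δpro#3 against Cre 2 were higher (Grem1 and Id2) and 0 lower, against 7.7% and 10%. Δpro#3 against full-length NFIA gave 7 higher and 1 lower (Bmp4), against 40.4% and 28.9%, and Cre + NFIA against ctrl gave 1 higher (Bmp4) and 4 lower (Bmp1, Smad6, Id1 and Id2), against 8.81% and 9.15%. The median member change was 0.36, -0.92, 0.10, 0.78 and -0.21 in these 5 comparisons, beside 0.09, -0.06, 0.02, 0.10 and 0.02 for all genes. The 0 lower calls of this paragraph were 0 also at an unadjusted p under 0.05 and with limma voom. These comparisons share samples and are not independent of each other.

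Over time the members went different ways in the 4 cell types. In ctrl 1 member rose from day 0 to day 7 (Id1) and 6 fell, where 32.9% of all genes were higher and 38.1% lower. In the libraries labelled Cre 3 rose (Grem1, Smad6 and Id1) and 2 fell (Bmp1 and Id2), against 30% and 21.6%. In Cre + NFIA 0 rose (0 also at an unadjusted p under 0.05 and with limma voom) and 7 fell, against 31.8% and 38.3%, and in Cre + NFIA Δpro#3 3 rose (Bmpr2, Grem1 and Smad6) and 3 fell (Bmp1, Id2 and Id3), against 24.5% and 17%. Bmp1 and Id2 fell in all 4 cell types. Bmp1 changed by -1.87 in ctrl, -0.98 in the libraries labelled Cre, -1.73 in Cre + NFIA and -0.90 in Cre + NFIA Δpro#3 (adjusted p of at most 5.09e-10), and Id2 by -1.37, -0.57, -2.10 and -0.47 (adjusted p of at most 4.73e-05). Id1 rose by 0.92 in ctrl and 1.05 in the libraries labelled Cre, fell by 0.92 in Cre + NFIA, and was at 0.04 (-0.28 to 0.35, adjusted p = 0.875) in Cre + NFIA Δpro#3. Grem1 changed by -0.75, 0.97, -0.84 and 2.19 in that order, all past the test. Of the smaller calls 2 rest on single libraries. Bmpr1a in ctrl (-0.33, adjusted p = 0.0118) was -0.19 (0.113) without day 0 replicate 2 and -0.25 (0.0779) without day 7 replicate 2, and Id3 in Cre + NFIA Δpro#3 (-0.34, adjusted p = 0.0185) lost its call without day 0 replicate 1 (0.0524) or day 7 replicate 1 (0.0559) or 3 (0.0839).

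**Figure D4:**
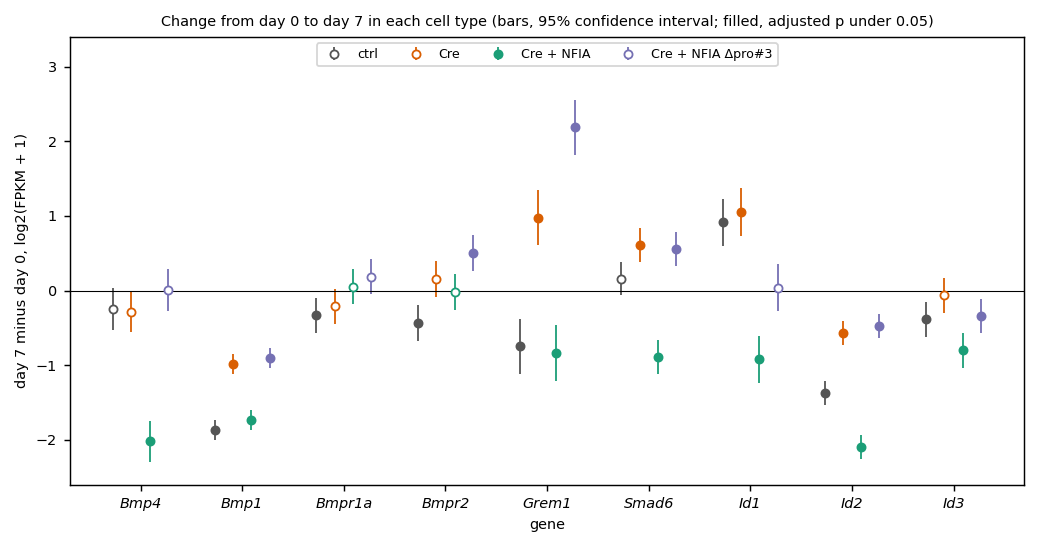
Change from day 0 to day 7 in log2(FPKM + 1) (y axis) of the 9 tested genes in each cell type. Bars are 95% confidence intervals and filled points passed the test. Bmp1 and Id2 lie below 0 in all cell types, Grem1 lies above 0 in the libraries labelled Cre and in Cre + NFIA Δpro#3 and below 0 in ctrl and Cre + NFIA.

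Whether a difference between cell types itself changed with time was tested as an interaction, day 7 minus day 0. For Cre against ctrl 5 members were higher and 0 lower (0 also at an unadjusted p under 0.05 and with limma voom), against 29.7% and 19.5% of all genes: Bmp1 0.89 (adjusted p = 1.98e-07), Bmpr2 0.58 (0.00591), Grem1 1.72 (1.18e-05), Smad6 0.45 (0.0201) and Id2 0.80 (4.90e-06). The Smad6 value fell to 0.32 to 0.37 (adjusted p = 0.0594 to 0.0682) without ctrl replicate 3 of day 0 or of day 7 or without replicate 1 of the day 0 libraries labelled Cre. The contrast of Cre + NFIA with Cre had 0 higher (likewise) and 7 lower, against 18.8% and 30.1%, and the largest were Id1 (-1.97, adjusted p = 2.23e-07), Grem1 (-1.81, 5.15e-06) and Bmp4 (-1.74, 2.11e-07), with Id2 at -1.53 (8.87e-10), Smad6 at -1.49 (1.04e-07), Bmp1 at -0.75 (9.11e-07) and Id3 at -0.74 (0.000546). Of these, Bmp4 depended on how low values are treated: with a pseudocount of 0.1 its interaction was -1.18 (adjusted p = 0.104) and on recovered reads with limma voom -0.50 (adjusted p = 0.596). For Cre + NFIA Δpro#3 against Cre 1 was higher (Grem1, 1.21, adjusted p = 0.00199) and 1 lower (Id1, -1.02, adjusted p = 0.00223), against 7.79% and 10.4%.

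Of the 53 other BMP pathway genes listed, 34 were tested. At day 0 between the libraries labelled Cre and ctrl 0 of the 34 were higher (2 at an unadjusted p under 0.05, 0 with limma voom) and 2 lower (Twsg1 and Pcolce2), where 1.63% and 1.7% of all genes tested were, and for Cre + NFIA against Cre 10 were higher and 6 lower (14.7% and 12.9% of all genes). The 10 included the co-receptor endoglin (Eng, 2.62 ± 0.454 to 8.67 ± 0.722 FPKM, 1.42, adjusted p = 4.84e-06), the type I receptor Acvrl1 (0.94, adjusted p = 0.000342), the extracellular modulator Bmper (1.46, adjusted p = 2.29e-05), the ligand Bmp6 (7.18 ± 0.649 to 9.96 ± 1.15 FPKM, 0.42, adjusted p = 0.0139), the BMP target Atoh8 (29.6 ± 3.16 to 46.5 ± 2.52 FPKM, 0.64, adjusted p = 0.00326) the inhibitory SMAD Smad7 (0.41, adjusted p = 0.00152) and the signal transducer Smad9 (0.42, adjusted p = 0.0119). Eng and Acvrl1 are also endothelial genes, and the 4 endothelial markers summed to 5.60 to 6.62 FPKM in the libraries labelled Cre and 8.90 to 10.2 FPKM in Cre + NFIA, with Pecam1 and Cdh5 below 1 FPKM; their part was not tested. Eng, Acvrl1, Bmper, Smad7 and Smad9 were named after their values were seen. The 6 lower genes were 3 secreted antagonists and modulators, 1 of the SMADs and regulators, 1 target, and the procollagen C-proteinase enhancer Pcolce. Pcolce was at 1394 ± 63.7 FPKM in the libraries labelled Cre and 991 ± 48.2 in Cre + NFIA. With Δpro#3 against Cre 3 were higher and 3 lower (9.26% and 9.02% of all genes): Eng (0.57, adjusted p = 0.00417) and Bmper (0.75, adjusted p = 0.00366) again passed, and Atoh8 (-0.04, adjusted p = 0.876), Smad7 (0.04, 0.764) and Acvrl1 (0.02, 0.941) did not. Against full-length NFIA, Δpro#3 had 4 higher and 10 lower (4.5% and 5.59% of all genes), and Cre + NFIA against ctrl 11 higher and 5 lower (18.8% and 14.3%). Pcolce2, an enhancer of procollagen cleavage, was at 10.6, 6.28, 20.0 and 11.6 FPKM in the order of the cell types.

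At day 7 more of these genes passed the test than at day 0, except for Cre + NFIA against ctrl, where fewer did. For Cre against ctrl 24 of 34 were higher and 3 lower, where 36.1% of all genes tested were higher and 22.7% lower. With full-length NFIA against Cre 5 were higher and 24 lower, against 27% and 35.9% of all genes. Cre + NFIA Δpro#3 against Cre had 9 higher and 1 lower (7.7% and 10% of all genes), Δpro#3 against full-length NFIA 26 higher and 4 lower (40.4% and 28.9%), and Cre + NFIA against ctrl 3 higher and 8 lower (8.81% and 9.15%). Of the 11 tested secreted antagonists and modulators 8 were higher and 2 lower in the libraries labelled Cre than in ctrl. In Cre + NFIA against Cre 8 were lower and 3 higher. The 3 were Chrdl1, noggin (Nog, 0.650 ± 0.297 to 1.52 ± 0.0296 FPKM) and Bmper (1.41 ± 0.112 to 3.02 ± 0.129 FPKM). Nog, like Bmper, was named after its values were seen. Nbl1, a gremlin relative, was at 21.6 ± 3.90, 58.2 ± 5.74, 14.2 ± 1.74 and 79.3 ± 6.98 FPKM (Cre + NFIA against Cre -1.96, adjusted p = 1.19e-07). The secreted glycoprotein Fstl1 was at 250 ± 31.7, 502 ± 41.0, 151 ± 4.21 and 571 ± 21.1 FPKM (-1.72, adjusted p = 2.32e-08). Fst, follistatin, which binds activins and some BMPs, gave -0.94 (adjusted p = 2.32e-06) and Twsg1, a cofactor of chordin, -0.82 (adjusted p = 2.64e-06).

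Chrdl1, a chordin-like BMP antagonist, was 1 of the 3 that ran the other way. It was at 5.77 ± 0.491 FPKM in ctrl, 1.78 ± 0.475 in the libraries labelled Cre, 9.32 ± 0.454 in Cre + NFIA and 0.987 ± 0.427 in Cre + NFIA Δpro#3 (Cre + NFIA against Cre 1.90, adjusted p = 9.51e-07). The ligand Gdf5 had the same order at low levels, 2.15 ± 0.665, 0.960 ± 0.325, 2.53 ± 0.296 and 0.424 ± 0.121 FPKM (0.86, adjusted p = 0.000567). Bmp6 went with the majority, at 2.28 ± 0.0776, 5.81 ± 0.744, 1.67 ± 0.104 and 5.71 ± 0.357 FPKM (-1.35, adjusted p = 1.25e-07), so that of the ligands measured Bmp4 was higher and Bmp6 lower in Cre + NFIA than in the libraries labelled Cre. Among receptors, the type I receptor Acvr1 was lower in Cre + NFIA (-0.73, adjusted p = 1.05e-05) and the co-receptor Rgma was not past the test (0.09, adjusted p = 0.221). The ubiquitin ligases Smurf1 and Smurf2, which turn over SMADs and receptors, gave -0.23 (adjusted p = 0.000495) and -0.47 (adjusted p = 0.00141).

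All 5 tested targets were lower in Cre + NFIA than in the libraries labelled Cre at day 7, where 35.9% of all genes tested were lower. Atoh8 was at 21.8 ± 1.58, 38.3 ± 2.35, 16.0 ± 0.768 and 42.0 ± 1.18 FPKM (-1.21, adjusted p = 3.24e-08), and Runx2, the osteoblast transcription factor, at 2.24 ± 0.0976, 4.76 ± 0.714, 2.18 ± 0.237 and 6.34 ± 0.492 FPKM (-0.85, adjusted p = 1.41e-05). Beside Bmp1, the procollagen C-proteinase enhancer Pcolce was at 487 ± 37.8, 937 ± 60.4, 365 ± 14.6 and 1155 ± 62.0 FPKM, the order of Bmp1 itself. Tll1, a proteinase related to Bmp1, had group means of 0.114 to 0.351 FPKM on both days and was not tested.

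**Figure D5:**
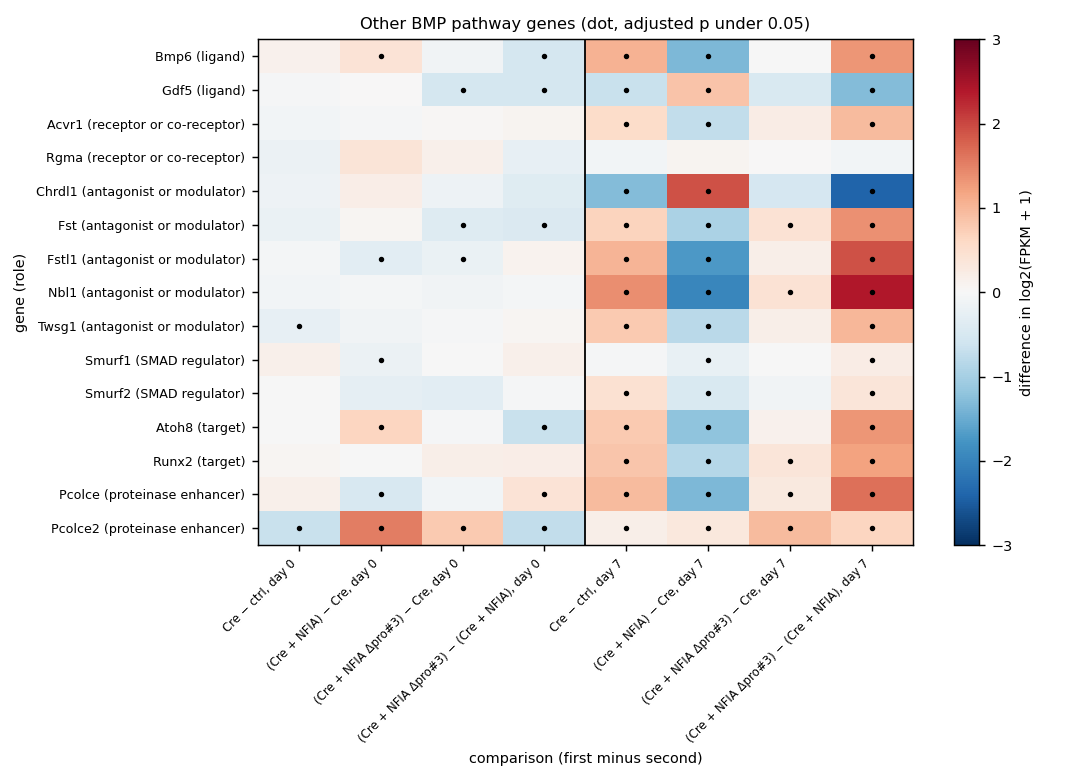
Differences in log2(FPKM + 1) (colour) of 15 named and tested BMP pathway genes that are not among the 10 (rows, with role) in 4 comparisons of cell types at day 0 and at day 7 (columns). Dots mark an adjusted p under 0.05. At day 7 most rows are red for Cre against ctrl and blue for Cre + NFIA against Cre, and Chrdl1 and Gdf5 have the opposite colours.

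Over time, 8 of the 34 were higher and 19 lower at day 7 in ctrl, where 32.9% of all genes were higher and 38.1% lower. In the libraries labelled Cre 13 were higher and 10 lower, against 30% and 21.6% of all genes. Cre + NFIA had 5 higher and 23 lower (31.8% and 38.3% of all genes), and Cre + NFIA Δpro#3 15 and 2 (24.5% and 17%). As interactions, the contrast of Cre with ctrl had 22 higher and 3 lower (29.7% and 19.5% of all genes), full-length NFIA with Cre had 3 and 24 (18.8% and 30.1%), and Δpro#3 with Cre had 5 and 2 (7.79% and 10.4%). Atoh8 (-1.85, adjusted p = 2.73e-09), Nbl1 (-1.91, adjusted p = 4.65e-09) and Bmp6 (-1.76, adjusted p = 2.39e-09) were among those lower for Cre + NFIA against Cre, as Id1 was.

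Some members also varied together from library to library within groups. Over the 24 libraries, after each group's mean was taken away, Id1 and Id3 had a Pearson correlation of 0.886 (0.881 without the 2 libraries farthest from the median), Smad6 and Id3 0.863, Smad6 and Id1 0.852, and the receptors Bmpr1a and Bmpr2 0.785. Bmpr1a and Id3 had -0.781, and Id2 and Id1 -0.127. The points share library, depth and RNA preparation, and these values are a description. By the correlation of log2(FPKM + 1) over all 24 libraries, among 8774 genes with a mean FPKM of at least 5, the genes most like Bmp4 were Lbp (0.891), Slc9a3r1 (0.868) and Tmem176b (0.866). Those most like Grem1 were Gpnmb (0.982), Clcn7 (0.946) and Lpin3 (0.944), those most like Smad6 were Zbed3 (0.928), Syne3 (0.918) and Fosl1 (0.915), and those most like Id1 were Rbm42 (0.928), Pfn1 (0.909) and Cdc20 (0.906).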

How the data were processed

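RNA-seq of 24 libraries was used. Per the methods and the labels, the authors made stranded mRNA libraries, aligned reads to mm9 with STAR 2.5.3a (build and version also from the submitters' processing notes), kept uniquely aligned reads and counted those on the matching strand per gene. The deposited values are FPKM. Totals were 7.73 to 14.62 M reads, and every value (100%) came to a whole number of reads (tolerance 0.01), so reads were recovered. Symbols turned into dates (26 rows) are not named. Intervals and the floor of 3 reads cover counting error only.

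Values were transformed to log2(FPKM + 1) and tested for 12640 genes (those that reached 1 FPKM in 3 or more libraries) in R 4.3.3 by limma 3.58.1, two-sided, with an empirical Bayes trend, adjusted by Benjamini-Hochberg over all genes tested. Comparisons within a day used that day's 12 libraries, and times and interactions used all 24. The functions were tested on simulated data. Replicate libraries differed by a chi-square of 2.17 to 15.1 per degree of freedom over genes, so none repeated another. Replicate numbers recur in each group and were checked for pairing (given in the closing section). Alternatives were a pseudocount of 0.1, no filter on low values, median-of-ratios size factors, quantile normalization, the replicate number as a block, limma voom on recovered reads, all 24 libraries in the fit, and each library left out.

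The members, pathway list, marker lists, motifs and tests were chosen with earlier results of these data known. Other pathway genes are named where they passed the test with a change of at least 3-fold within a day (5 genes, of which 1 counts in the totals and is not reported here by name), or had 1 of the 2 highest mean FPKM of their role, together with genes said to be named after their values were seen. The genes most like a member are the 3 with the highest Pearson correlation. Positions are from GENCODE vM1 on NCBIM37, which is mm9. Promoters are from RefSeq (GRCm38.p6), and no coordinates were converted.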

Additional observations from a re-analysis of the deposited data

Results flagged for a closer look

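The interactions of 3 members, 4 in all, reached 3-fold between the days: the difference between cell types at day 7 was unlike that at day 0. Bmp4, Cre + NFIA against Cre, changed by -1.74 (adjusted p = 2.11e-07) between the days, from 3.36 at day 0 to 1.62 at day 7. That value follows the log2(FPKM + 1) scale, since the ratio of pooled reads per 1000000 was 35.9 (22.9 to 60.0) at day 0 and 26.5 (11.95 to 73.0) at day 7, with overlapping intervals. Grem1 changed by 1.72 (adjusted p = 1.18e-05) for Cre against ctrl and by -1.81 (adjusted p = 5.15e-06) for Cre + NFIA against Cre. Id1, Cre + NFIA against Cre, changed by -1.97 (adjusted p = 2.23e-07), from 1.06 at day 0 to -0.92 at day 7, and so turned from higher to lower with both differences past the test. Adipocyte marker sums differed between the same day 7 groups, as given in the report, and their part in these values was not tested.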

How the results depend on the processing

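The 17 counts of members past the test and 162 log2 changes were recomputed under the alternatives, and no change reversed. The fit with all 24 libraries was an alternative only for the comparisons within a day, since those over time already used all 24. Of the 162 changes 142 kept their direction and their side of the threshold under each alternative run for them. The count for Cre against ctrl at day 0 was 1, was 0 with all 24 libraries in the fit, and ranged from 0 to 1 with single libraries left out. The count for Cre + NFIA Δpro#3 against Cre at day 0 was 2 and ranged from 2 to 4, with 4 without ctrl replicate 2. For Cre against ctrl at day 7 it was 7, and 4 with median-of-ratios size factors. Same-numbered libraries showed little shared deviation: of 42 same-numbered correlations of deviations from the group means 4 were over 0.1 (range -0.274 to 0.201). With 3 libraries per group this cannot show whether same-numbered libraries share a culture or batch, which is not stated. With the replicate number as a block 160 of the 162 changes stayed on their side of the threshold. Bmpr1a for Cre + NFIA against ctrl at day 0 (-0.35) had an adjusted p of 0.0511 with the block, and Bmpr2 for Cre + NFIA against Cre at day 7 (-0.30) had 0.0174. The cause of these shifts was not tested. Depth limits Bmp2, and Bmp4 outside Cre + NFIA, where libraries held 1 to 14 reads.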
